A study of Homo sapiens with 44 samples.

Results

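The 9 genes described here control entry into the cell cycle: the D cyclins CCND1, CCND2 and CCND3, their kinases CDK4 and CDK6, the cyclin-dependent kinase inhibitors CDKN1A (p21), CDKN1B (p27) and CDKN2C (p18-INK4c), and MDM2, a ubiquitin ligase. They were the rows of the deposited count tables that carry these symbols, 9 of 19923 genes. The set is one of known function and was not selected by a measured value, but earlier results of these data were known when it was chosen.

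The study measured poly(A) RNA (input) and the fraction pulled down with an antibody against N6-methyladenosine (m6A RIP) in neuroblastoma cells given STM2457, an inhibitor of the m6A methyltransferase METTL3. Kelly and NGP, both MYCN-amplified neuroblastoma cell lines labelled wild type, were grown in culture with 8 µM STM2457 or with DMSO. There were 3 input and 3 RIP libraries for each treatment at each time, which was 1 day or 6 days for Kelly and 6 days for NGP. Kelly cells were also injected subcutaneously into male and female nude mice, which received 50 mg/kg STM2457 or vehicle (labelled DMSO) intraperitoneally each day for 14 days. These tumours gave 2 input and 2 RIP libraries for each treatment. Each line is 1 cell line, so a difference between NGP and Kelly compares these lines only. By the file headers no folder held files of more than 1 experiment. Neither line nor, in Kelly, treatment time can therefore be told apart from experiment. The input and RIP files of Kelly at 1 day lay in separate folders, so there RIP over input is also a comparison between folders, and the part of this in the ratios was not tested. The labels do not say whether the libraries of a group came from separate cultures or animals, so p-values measure the spread between these libraries.

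D cyclins, made in response to growth signals, bind CDK4 or CDK6, and the active kinases phosphorylate the retinoblastoma protein, which releases E2F factors and lets the cell pass the restriction point of G1. INK4 proteins such as CDKN2C bind CDK4 and CDK6 themselves, whereas CDKN1A and CDKN1B bind cyclin-kinase complexes and inhibit CDK2 most strongly. MDM2 marks proteins for degradation. NGP is known for an amplified stretch of 12q with CDK4 and MDM2.

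Library totals ran from 2144870 to 36497858 counted fragments, and were lowest in the xenograft inputs, where the highest was 7271929. Of the neuroblastoma identity genes, MYCN had input group means of 3554 to 6711 CPM (a gene's counts scaled to a common library total), HAND2 of 855 to 3771 CPM and GATA3 of 156 to 384 CPM. TH, the gene of tyrosine hydroxylase, was low in NGP (means of 0.870 CPM in the DMSO group and 2.95 CPM in the treated one), against 516 to 1779 CPM in the other groups. The 20 markers of stroma, blood, epithelium and glia summed to 89.9 to 199 CPM, with 10 of 20 at 0 in the DMSO tumours and 12 of 20 in the treated tumours, where the sum was 136 to 171 CPM and 125 to 185 CPM. In these bulk samples fewer cells of a type and less RNA per cell cannot be told apart. The files list human genes only, and the sources used here do not give how reads from the mouse host were treated.

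METTL3 with its partner METTL14 methylates an adenosine in a short consensus, a common form of which is GGACT in the DNA alphabet. The windows around each GGACT are shown for CDKN2C and CDKN1B, the members recovered most by the antibody in Kelly, and for CDK4 and CDKN1A, which were recovered less. Each is 21 bases of the canonical GENCODE 44 transcript on hg38, on the transcript's strand, the only strand searched, with the motif in capitals.
CDKN2C, coding sequence, chr1:50970476-50970496 (+): atttggaaGGACTgcgctgca
CDKN1B, coding sequence, chr12:12717960-12717980 (+): ttaacccgGGACTtggagaag
CDK4, 3′ UTR, chr12:57748148-57748168 (-): ggaagaagGGACTttcctgca
CDKN1A, 3′ UTR, chr6:36686690-36686710 (+): agctcaatGGACTggaagggg
CDKN1A, 3′ UTR, chr6:36687156-36687176 (+): actggcctGGACTgttttctc

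Each of CDKN2C, CDKN1B and CDK4 thus held 1 GGACT and CDKN1A held 2. The remaining members held from 3 (CCND1 and CCND3) to 7 (MDM2). Per kb of transcript the number was 1.01 for CDKN2C, 0.945 for CDKN1A, 0.536 for CDK4 and 0.415 for CDKN1B. CCND3, also recovered less in Kelly but without windows shown, had 1.48 per kb, the highest of the members. The median over the 13362 genes compared in Kelly at 1 day was 0.928 per kb, and 91.6% of those genes held at least 1. Across those genes the number per kb and the log2 ratio of RIP over input had a Spearman rho of 0.083 in Kelly at 1 day, and of -0.110 over 12821 genes in NGP. These are descriptions across genes, which are not independent and share the same libraries. A match is a run of letters and not a measured site.

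The promoter windows of CDK4 and CDKN1A, the member with the highest level in NGP and the one that fell most with STM2457, are shown from RefSeq (GRCh38.p14), 250 bases before to 50 after the start, on the gene's strand.
CDK4, chr12:57752261-57752560 (-): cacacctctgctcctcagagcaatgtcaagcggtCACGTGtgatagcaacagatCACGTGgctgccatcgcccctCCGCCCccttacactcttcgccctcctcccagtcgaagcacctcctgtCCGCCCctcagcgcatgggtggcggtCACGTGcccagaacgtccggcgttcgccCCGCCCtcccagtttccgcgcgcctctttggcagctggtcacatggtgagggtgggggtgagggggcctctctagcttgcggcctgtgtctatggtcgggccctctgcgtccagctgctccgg
CDKN1A, chr6:36678464-36678763 (+): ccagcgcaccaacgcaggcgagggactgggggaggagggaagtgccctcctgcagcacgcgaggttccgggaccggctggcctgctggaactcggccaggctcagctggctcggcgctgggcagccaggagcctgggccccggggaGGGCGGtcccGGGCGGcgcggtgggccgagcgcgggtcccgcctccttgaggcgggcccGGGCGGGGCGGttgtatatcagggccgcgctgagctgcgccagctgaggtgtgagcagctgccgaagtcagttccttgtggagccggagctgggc

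The capitals mark CACGTG, the E-box bound by MYC family proteins, and GGGCGG, the box bound by SP1, on either strand. Overlapping matches were counted separately. CDK4 held 3 CACGTG and 3 GGGCGG, and CDKN1A held 4 GGGCGG and no CACGTG. Of 35116 promoter windows in the table, 7.26% held CACGTG and 45.0% held GGGCGG. The E2F-type runs TTTGGCGC and TTTCCCGC, held by 0.652% and 1.63% of windows, were in neither of these windows, and an MDM2 window held 1 TTTGGCGC. The table gave windows for 7 of the 9 members, all but CCND1 and CCND2.

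With DMSO, the order of the members per kb of exon length differed between the lines. In Kelly at 6 days CDKN1A was highest at 47.8 ± 3.59 CPM per kb (mean ± SD, n = 3), followed by CDK4 at 41.0 ± 0.995, CDKN1B at 30.4 ± 1.40, CCND1 at 28.7 ± 0.647 and CDKN2C at 24.0 ± 1.08. CCND3 (5.28 ± 0.308) and CDK6 (5.03 ± 0.336) overlapped, as did CDKN1B and CCND1, and MDM2 followed at 0.625 ± 0.163. CCND2 was nearly absent, at 0 to 0.339 CPM in every DMSO input and 0 to 0.862 CPM in every treated one, and it passed no low-count filter. It enters no test, so 8 of 9 members were tested throughout.

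In NGP at 6 days CDK4 led at 478 ± 59.9 CPM per kb (n = 3), which put it 87th among 14814 genes with a count. CCND1 came next at 87.8 ± 3.95 and CDKN1B at 32.4 ± 4.08. CDKN1A (22.6 ± 1.82) and MDM2 (11.4 ± 2.34) were followed by CCND3 (6.06 ± 1.22), CDK6 (5.61 ± 1.06) and CDKN2C (3.81 ± 0.868). The libraries of these last 3 genes overlapped. Of the exon bases of CDK4, 44.25% are shared with TSPAN31 on the opposite strand. The counting command in the file headers sets no strand and no multi-overlap option, so fragments within the shared bases are counted for neither gene. The level of CDK4 per kb of all its exon bases therefore leaves out fragments of that stretch. It is uncertain, and so is its place after CDKN1A in Kelly. The share was 10.44% for CCND1 (with LTO1), 13.93% for CCND2 and 0.989% for MDM2.

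**Figure D1:**
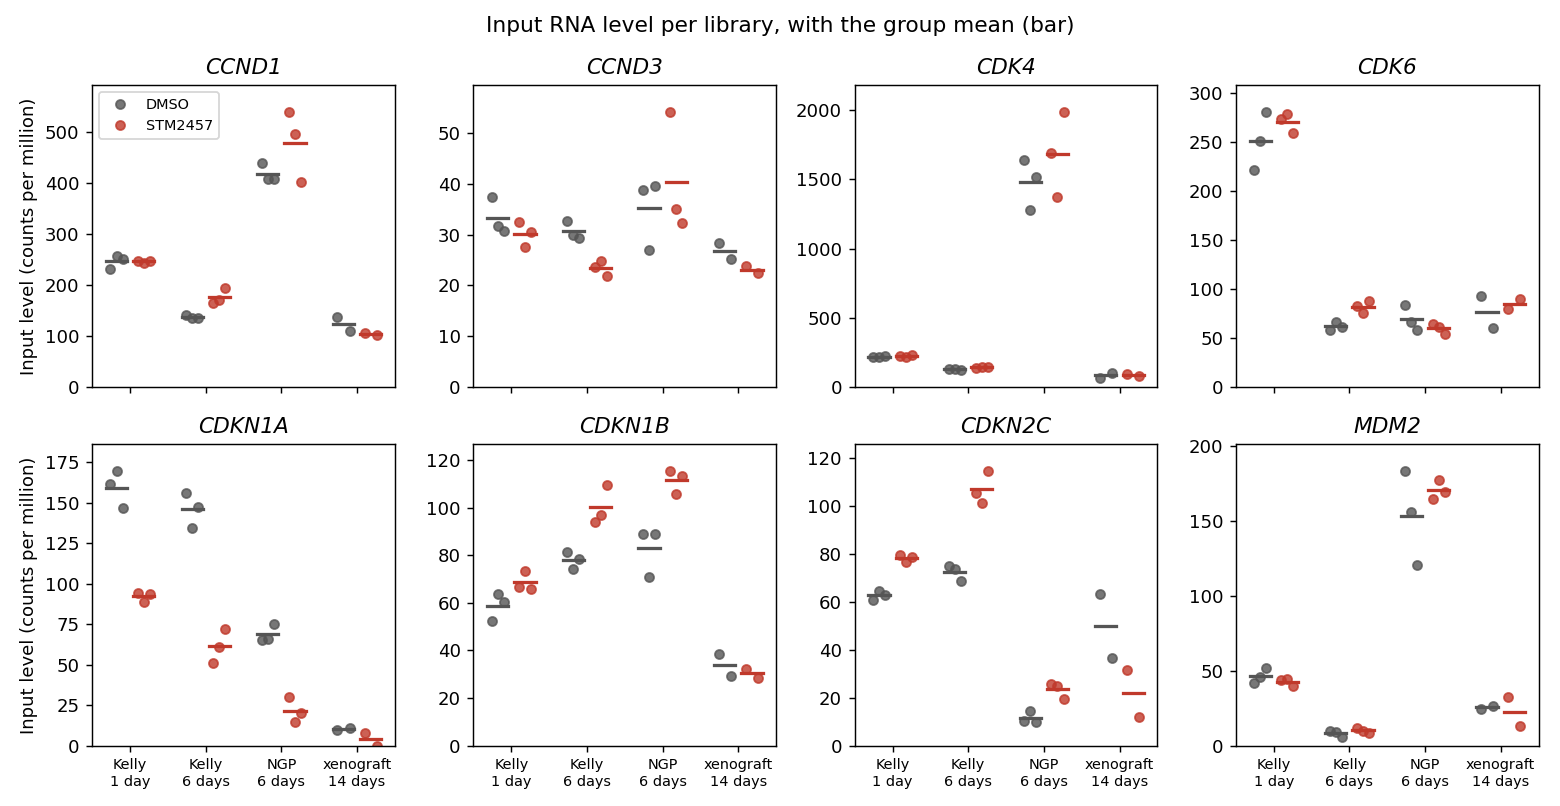
Input level in CPM of the 8 tested members in each library (points) with the group mean (bar), by experiment and treatment, each panel on its own linear axis from 0. CDK4 and MDM2 stand far higher in NGP than in Kelly, and the CDKN1A libraries with STM2457 lie below those with DMSO in each experiment, a difference that did not pass the test in the tumours. Groups lay apart, either way, for 34.5% of all genes tested in Kelly at 1 day and 44% at 6 days. The share was 23.7% in NGP and 42.0% in the tumours.

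The NGP over Kelly comparison at 6 days with DMSO asked how far the members' baseline levels differ between the lines. Of the 8 tested, 5 passed (edgeR quasi-likelihood, adjusted p below 0.05), 3 higher and 2 lower, where 60.8% of all 12940 genes tested were called. Most of the genome differed between these lines, so a count of 5 of 8 is near the background, and the sizes carry the description. MDM2 was at 5.91, 9.31 and 10.0 CPM in the Kelly libraries and at 121, 156 and 183 CPM in NGP. It was 15.9-fold higher in NGP (log2 3.99, SE 0.20, edgeR adjusted p = 1.03e-07), which ranked 236th of 12940 from the top. The MDM2 level of Kelly itself varied between experiments. Its mean input with DMSO was 8.41 CPM at 6 days, 46.7 CPM at 1 day and 25.7 CPM in the tumours. The size of the fold therefore belongs to the experiments at 6 days. CDK4 stood at 124, 127 and 130 CPM in Kelly and at 1279, 1518 and 1644 CPM in NGP. Its difference was 10.2-fold (log2 3.35, SE 0.096, edgeR adjusted p = 1.91e-09). No Kelly library reached the lowest NGP library for either gene.

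CCND1 was 2.67-fold higher in NGP (log2 1.42, SE 0.075, edgeR adjusted p = 1.32e-07), at 135 to 140 CPM in Kelly against 407 to 440 CPM. The inhibitors CDKN2C and CDKN1A lay the other way. CDKN2C was at 68.8, 73.8 and 74.96 CPM in Kelly and at 9.75, 10.2 and 14.5 CPM in NGP, 7.39-fold lower (log2 -2.89, SE 0.16, edgeR adjusted p = 2.13e-07). CDKN1A was at 134, 148 and 156 CPM in Kelly and at 65.3, 66.1 and 75.3 CPM in NGP, 2.42-fold lower (log2 -1.28, SE 0.10, edgeR adjusted p = 2.63e-06). CCND3 (log2 0.01), CDK6 (-0.04) and CDKN1B (-0.10) did not pass, with edgeR adjusted p of 0.956, 0.794 and 0.405. For CDK6 too this belongs to the experiments at 6 days: its Kelly mean with DMSO was 61.7 CPM there and 251 CPM at 1 day.

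The genes beside CDK4 and MDM2 on chromosome 12 were higher in NGP as well. Around CDK4, 13 consecutive tested genes, from AGAP2 to SLC16A7 (chr12:57723761-59789855, GRCh38), were each called and at least 4-fold higher. The run stopped at OS9 on one side (log2 0.10, edgeR adjusted p = 0.341) and USP15 on the other (log2 0.45, 0.0463). Around MDM2 the run held 9 genes, from RAP1B to CCT2 (chr12:68610855-69601570), and stopped at MDM1 (log2 0.53, edgeR adjusted p = 0.063) and RAB3IP (log2 -0.86, 0.0106).

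Of the genes within 1 Mb, 13 of 36 tested beside CDK4 and 8 of 10 beside MDM2 were at least 4-fold higher, against 5.20% of all genes tested. The 3 largest differences beside CDK4 were those of TSPAN31 (log2 5.10, SE 0.11), ATP23 (5.04, SE 0.21) and CYP27B1 (4.88, SE 0.18), the last encoding the enzyme that activates vitamin D. Beside MDM2 they were the carboxypeptidase M gene (symbol CPM), YEATS4 (4.46, SE 0.12) and NUP107 (4.34, SE 0.089), which encodes a nuclear pore protein. The carboxypeptidase M gene had a mean of 9.67 CPM in NGP and no count in the Kelly libraries. Beside CDKN2C 2 of 9 were at least 4-fold higher and beside CCND3 1 of 24, and beside CCND1, CCND2, CDK6, CDKN1A and CDKN1B none.

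**Figure D2:**
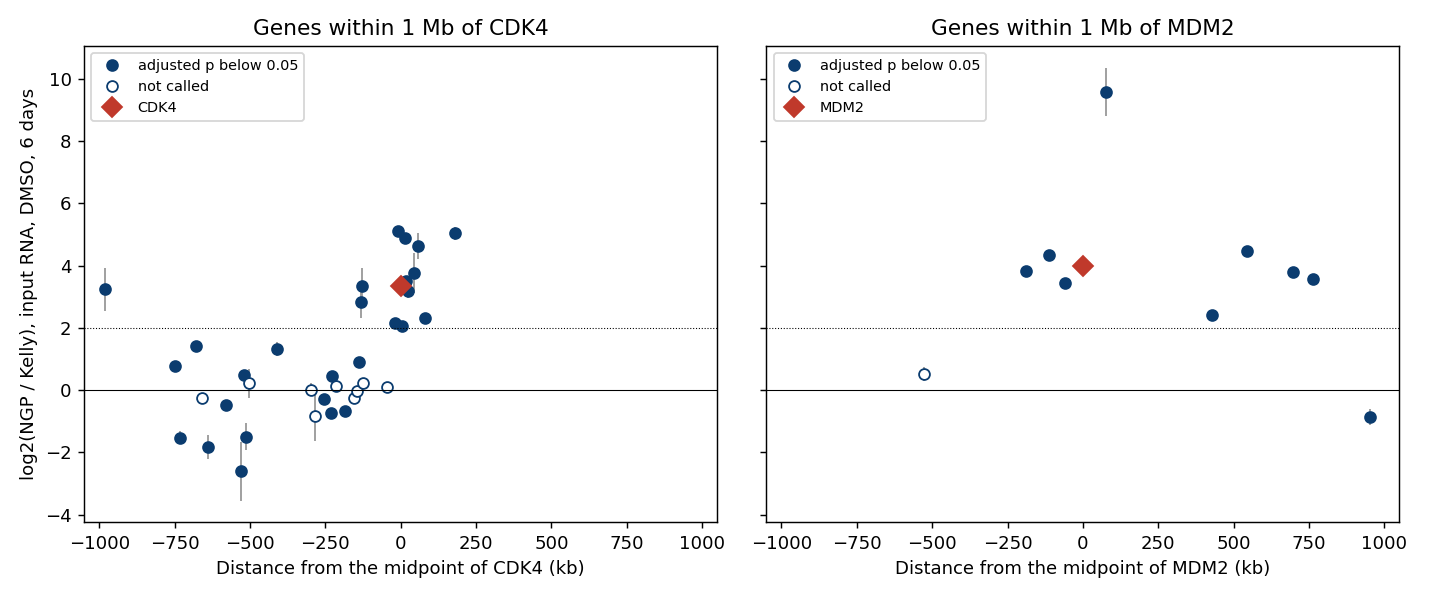
Log2 ratio of NGP over Kelly (input, DMSO, 6 days, edgeR estimate ± SE) of the tested genes within 1 Mb of CDK4 (left) and MDM2 (right) against distance in kb from the midpoint of the member (diamond). The dotted line marks a 4-fold difference: 13 neighbours of CDK4 and 8 of MDM2 lie above it.

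Of 9340 genes averaging 10 CPM or more in the inputs, those whose log2(CPM + 1) followed CDK4 most closely over the 22 input libraries were ANAPC5 (Pearson r = 0.994) and ZCCHC8 (0.989). Both lie far along the same chromosome, at chr12:121308245-121399896 and chr12:122471599-122501073. For MDM2 they were C1orf174 (0.964) on chromosome 1 and VPS33A (0.962) at chr12:122229564-122266494. CCND1 was followed by ELAVL4 (0.977) and MAP4K4 (0.973), and CDKN1A by ATP5MC1 (0.945) and RALGPS1 (0.930). The 22 points fall into separate groups by experiment, so these correlations mainly describe how far the experiments stand apart.

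CDKN1A fell with STM2457 in all 3 culture experiments. The other inhibitors moved up by less: CDKN2C passed in Kelly at both times and CDKN1B in Kelly at 6 days. In culture the treated libraries of both lay above the DMSO libraries of their experiment, a separation of groups, either way, that 34.5% of all genes tested also had in Kelly at 1 day, 44% at 6 days and 23.7% in NGP. The cyclins and kinases moved by less than 1.4-fold at every call. Of 8 members tested, edgeR called 2 in Kelly at 1 day, 1 higher and 1 lower, where 17.5% of all genes were called (9.41% higher and 8.06% lower). At 6 days it called 6 in Kelly, 4 higher and 2 lower (background 26.6%, 11.9% and 14.7%), 1 in NGP, lower (4.23%, 2.07% and 2.16%), and 0 in the xenograft (0% of 11329 genes). In the xenograft no member had an unadjusted p under 0.05, 968 of all genes had one, and DESeq2 called no member and 125 genes.

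CDKN1A, the inhibitor that halts the cycle after damage, was at 147, 162 and 169 CPM with DMSO and at 88.6, 93.7 and 94.5 CPM with STM2457 in Kelly at 1 day. At 6 days the Kelly values were 134, 148 and 156 against 51.3, 61.2 and 72.3 CPM. In NGP they were 65.3, 66.1 and 75.3 against 14.4, 20.3 and 29.8 CPM. The treated libraries lay below all DMSO libraries each time. CDKN1A fell by 0.81 (SE 0.060) on the log2 scale in Kelly at 1 day (edgeR adjusted p = 2.21e-07), by 1.38 (SE 0.095) at 6 days (3.41e-08) and by 1.73 (SE 0.23) in NGP (3.42e-05). It ranked 131st, 151st and 74th from the bottom among 13246, 12773 and 12289 genes.

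The fall in Kelly was larger at 6 days than at 1 day, by 0.56 (SE 0.12) on the log2 scale, and that difference passed its own test (edgeR adjusted p = 0.00368). Between Kelly and NGP at 6 days the difference of 0.38 (SE 0.25) did not (adjusted p = 0.573). Time and experiment cannot be told apart in the former difference, nor line and experiment in the latter. With all 22 inputs in 1 fit, whose spread is shared over experiments, the call in Kelly at 1 day was lost (log2 -0.83, edgeR adjusted p = 0.119) and those at 6 days in both lines were kept. In the tumours CDKN1A was low, at 9.77 and 10.9 CPM with vehicle and at 7.84 and 0 CPM with STM2457 (log2 -1.23, SE 1.40, edgeR adjusted p = 0.877). The library at 0 was the shallowest of the series at 2144870 counts, and of the alternatives run only the one that kept this library as the lone treated one passed (edgeR adjusted p = 0.00384), its spread taken from the vehicle group alone.

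CDKN2C, the INK4 inhibitor of CDK4 and CDK6, was at 60.8, 62.9 and 64.4 CPM with DMSO and at 76.7, 78.8 and 79.6 CPM with STM2457 in Kelly at 1 day, and rose by 1.23-fold (log2 0.30, SE 0.060, edgeR adjusted p = 0.00246). At 6 days it was at 68.8, 73.8 and 74.96 against 101, 105 and 115 CPM, 1.36-fold higher (log2 0.44, SE 0.069, edgeR adjusted p = 0.00017). In NGP it was at 9.75, 10.2 and 14.5 against 19.5, 25.0 and 25.9 CPM, a log2 difference of 0.97 (SE 0.29) that missed the threshold (edgeR adjusted p = 0.0546). With all 22 inputs in 1 fit the calls in Kelly were lost at 1 day (log2 0.29, edgeR adjusted p = 1) and at 6 days (0.47, 0.208). The NGP value passed with DESeq2 (adjusted p = 0.0311) and in 4 other alternatives, that fit among them (0.0077). In the tumours the order was turned, with 36.7 and 63.5 CPM for vehicle and 12.1 and 31.7 CPM for STM2457 (log2 -1.06, SE 0.53, edgeR adjusted p = 0.627). That value passed in the fit of all 22 inputs (log2 -1.01, adjusted p = 0.0179) and without treated replicate 1 (-1.91, 0.00147), where the lower treated library was alone and the vehicle group alone gave the spread.

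CDKN1B, the inhibitor that holds resting cells in G1, was at 52.6, 60.2 and 63.6 CPM with DMSO and at 65.7, 66.8 and 73.3 CPM with STM2457 in Kelly at 1 day, which did not pass (log2 0.20, SE 0.075, edgeR adjusted p = 0.0773). At 6 days it rose from 74.3, 78.5 and 81.4 to 94.0, 96.8 and 110 CPM (log2 0.24, SE 0.072, edgeR adjusted p = 0.0212). In NGP the values were 70.9, 89.0 and 89.0 against 106, 113 and 115 CPM (log2 0.35, SE 0.16, edgeR adjusted p = 0.242). In the tumours the groups overlapped (log2 -0.03, SE 0.42). The call at 6 days was lost without DMSO replicate 2 (log2 0.20, adjusted p = 0.107) or DMSO replicate 3 (0.25, 0.0621), and in the fit of all inputs (0.27, 0.258).

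Of the D cyclins, CCND1 was at 135, 135 and 140 CPM with DMSO in Kelly at 6 days and at 164, 170 and 194 CPM with STM2457. It rose by 1.19-fold (log2 0.25, SE 0.067, edgeR adjusted p = 0.0116), a call lost without DMSO replicate 2 or 3 (adjusted p = 0.0573 and 0.0535) and in the fit of all inputs (0.152). At 1 day its level was 231 to 256 against 243 to 247 CPM (log2 -0.03, SE 0.049), and the responses at the 2 times differed by 0.29 (SE 0.083, edgeR adjusted p = 0.0303). That call was lost with the replicate block (0.0677) and without any 1 of 5 libraries of Kelly at 1 day, DMSO replicates 2 and 3 and the treated ones (0.0515 to 0.0757). CCND3 fell in Kelly at 6 days, from 29.3, 30.0 and 32.7 to 21.9, 23.7 and 24.8 CPM (log2 -0.48, SE 0.10, edgeR adjusted p = 0.0023), and fitting all inputs together ended this call too (0.181). In NGP neither cyclin passed (log2 0.12 and 0.13, edgeR adjusted p = 0.733 and 0.824).

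CDK6 rose in Kelly at 6 days, from 57.8, 61.3 and 66.0 to 74.8, 82.0 and 87.4 CPM (log2 0.28, SE 0.079, edgeR adjusted p = 0.0139). The call was lost without DMSO replicate 1 or 3 (adjusted p = 0.0837 and 0.0516) and in the fit of all inputs (0.259). CDK4 did not pass in any experiment: its log2 differences were -0.0028 (SE 0.045) for Kelly at 1 day, 0.05 (SE 0.060) at 6 days, 0.12 (SE 0.16) in NGP and 0.17 (SE 0.28) in the tumours. MDM2 did not pass either, with log2 -0.15 (SE 0.082), 0.22 (SE 0.19), 0.09 (SE 0.16) and -0.05 (SE 0.55) in the same order. Between Kelly and NGP at 6 days no member's response differed by its own test (0 of 8 called, background 1.36%, 0.565% higher and 0.796% lower). Unadjusted, CCND3, CDK6 and CDKN2C had p under 0.05, and DESeq2 called none. Between 6 days and 1 day in Kelly 2 of 8 did, 1 each way (background 8.41%, 3.67% higher and 4.73% lower), the CCND1 and CDKN1A differences given above.

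**Figure D3:**
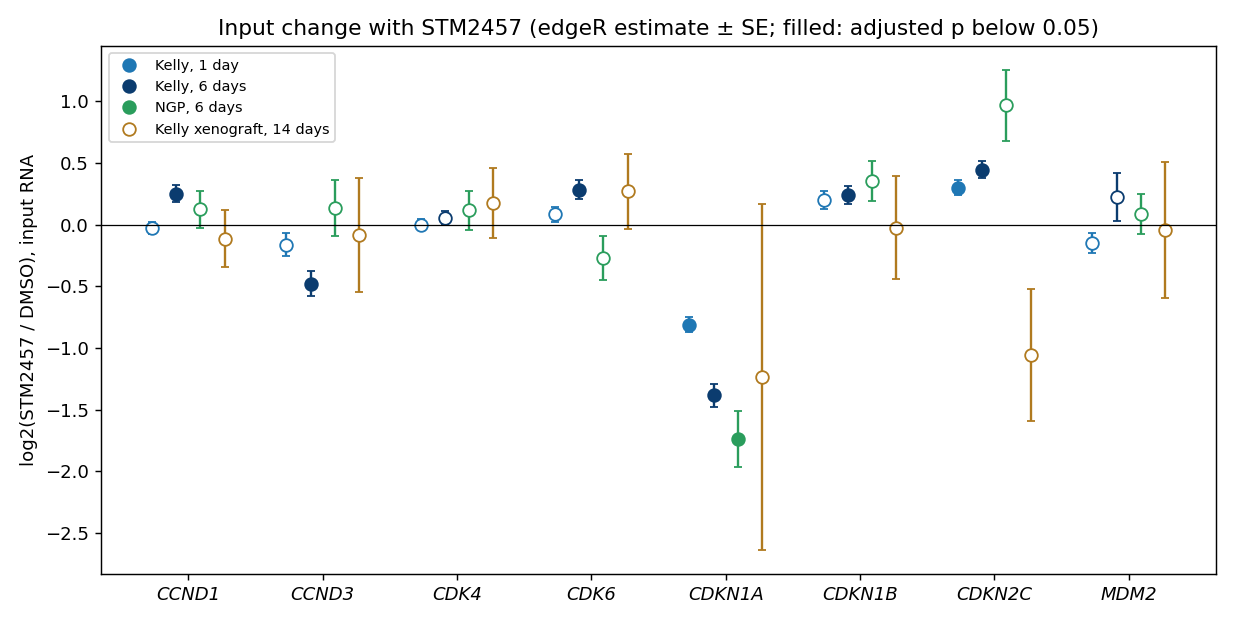
Log2 change of input RNA with STM2457 for the 8 tested members in the 4 experiments (edgeR estimate ± SE), filled where the adjusted p was below 0.05. CDKN1A lies lowest in each culture experiment, at -0.81, -1.38 and -1.73, and the tumour estimates carry the widest errors.

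The genes around these members in the pathway were counted by list. Of the restriction point genes (RB1, E2F factors, cyclin E, CDK2 and others), 1 of 26 tested was lower in Kelly at 1 day (SKP2, log2 -0.16, SE 0.053), where 8.06% of all genes were. At 6 days 4 of 27 were lower, near the background of 14.7%, and 1 was higher, below the background of 11.9%. CDKN1C (p57), the third CIP/KIP inhibitor, fell most there (log2 -2.94, SE 0.16, edgeR adjusted p = 3.73e-09), and CDKN2D (p19-INK4d) fell by 0.49 (SE 0.17) on the log2 scale. None of 26 was called in NGP and none of 25 in the tumours, where the medians were 0.04 and -0.13. All genes tested had medians of 0.01 and -0.01 there, with 4.23% and 0% called. NGP over Kelly held 10 higher and 7 lower of 27 (29.1% and 31.7% of all genes), led by CDKN2A (log2 3.76, SE 0.13), the gene of p16 and of the MDM2 inhibitor ARF. FBXO4 had no count in NGP and a mean of 3.53 CPM in Kelly, and CDKN1C was lower in NGP (log2 -6.46, SE 0.46). The CDKN1C difference belongs to the experiments at 6 days. Its mean with DMSO was 26.5 CPM in Kelly there and 0.295 CPM in NGP, but 0.315 CPM in Kelly at 1 day. In the Kelly tumours it was 60.5 CPM.

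Of 30 S phase targets of E2F, 3 rose and 10 fell in Kelly at 1 day, where 9.41% and 8.06% of all genes did. At 6 days 2 rose and 3 fell, fewer than the background of 11.9% and 14.7%, and in NGP 2 rose (background 2.07%). FEN1, a nuclease gene of lagging-strand synthesis, rose in all 3 (log2 0.62, SE 0.043; 0.59, SE 0.063; 0.61, SE 0.15). The G2 and M phase genes held 1 rise and 8 falls of 25 in Kelly at 1 day, 2 and 10 of 24 at 6 days, and 1 and 1 of 24 in NGP, with medians of -0.16, -0.26 and -0.28. Over all genes 8.06%, 14.7% and 2.16% fell, and the medians were 0.01, -0.0045 and 0.01. PTTG1 (securin) fell in the 3 experiments (log2 -0.34, -0.70 and -0.70), and FOXM1, a transcription factor gene of G2, rose (0.27, 0.41 and 0.66). In the tumours neither list had a call (medians -0.16 of 30 and -0.21 of 23). In NGP over Kelly 19 of 25 G2 and M phase genes were higher and none lower (median 0.57), and 15 of 30 S phase targets were higher and 9 lower, against 29.1% higher and 31.7% lower over all genes.

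The ratio of RIP over input describes how much of a gene's RNA the m6A antibody recovered, relative to the typical gene. Factors from the 13 mitochondrially encoded mRNAs in place of TMM moved the all-gene median log2 ratio with DMSO from -0.07 to 1.57 in Kelly at 1 day, from -0.11 to 4.77 at 6 days, from 0.08 to 0.80 in NGP and from -0.16 to 2.02 in the tumours. The directions below are therefore relative to that median, and members whose direction turned are named. With these factors the calls of CCND3 and CDKN1A in Kelly at 1 day and of CDK4 in Kelly at 6 days were lost. So were those of CCND1 and CDK4 in NGP and of CDK4 in the tumours. Calls above input were gained in Kelly at 6 days for MDM2 (log2 5.76, edgeR adjusted p = 8.4e-08), CCND1 (4.94, 5.69e-08) and CDKN1A (4.85, 1.14e-07). In NGP one was gained for CDKN1B (1.12, 0.0252). With DMSO edgeR called 8 of 8 members in Kelly at 1 day, 3 higher and 5 lower, where 67.6% of all genes were called (33.3% higher and 34.3% lower). It called 5 of 8 at 6 days, 3 higher and 2 lower (background 58%, 28.8% and 29.2%), 6 of 8 in NGP, 2 higher and 4 lower (55.5%, 29% and 26.5%), and 1 of 8 in the tumours, lower (3.75%, 1.61% and 2.15%). More than 55% of all genes differ in the culture experiments, so the counts are near the background.

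CDKN2C was recovered most in Kelly. Its RIP level was 312, 319 and 350 CPM against a mean input of 62.7 CPM at 1 day, a ratio of 5.21 ± 0.320 (n = 3). At 6 days the RIP libraries held 635, 810 and 1039 CPM against 72.5 CPM, a ratio of 11.4 ± 2.79, which ranked 333rd from the top of 13324 genes by the fit (log2 3.47, SE 0.24, edgeR adjusted p = 1.85e-07). In NGP the ratio was 1.22 to 3.51 (log2 1.04, SE 0.32, edgeR adjusted p = 0.00779), and the call was lost without DMSO replicate 1 (0.49, 0.228). The tumours gave 5.07 and 8.41 (log2 2.80, SE 1.01, adjusted p = 0.143). Every DMSO RIP library exceeded the mean input of its group.

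CDKN1B had ratios of 3.18 to 3.87 in Kelly at 1 day (log2 1.86, SE 0.13, edgeR adjusted p = 2.77e-08) and 3.63 to 4.54 at 6 days (1.97, SE 0.23, 1.49e-05). In NGP they were 1.12 to 1.77, which did not pass (0.36, SE 0.19, 0.112). MDM2 was recovered above input in NGP, at ratios of 3.04 to 3.35 (log2 1.56, SE 0.19, edgeR adjusted p = 3.15e-07), and in Kelly at 1 day, at 1.76 to 2.12 (1.05, SE 0.15, 3.43e-05). In Kelly at 6 days, with 8.41 CPM of input, its ratios of 1.52 to 2.81 did not pass (0.93, SE 0.60, 0.205).

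CDK4, CCND3 and CDKN1A lay at the other end. CDK4 was at 22.4, 25.9 and 27.5 CPM in the RIP libraries of Kelly at 1 day against 219 CPM of input, a ratio of 0.115 ± 0.0119 (log2 -3.06, SE 0.12, edgeR adjusted p = 1.04e-10). At 6 days the ratio was 0.0472 ± 0.0253 (log2 -4.44, SE 0.42, adjusted p = 2.21e-06), a direction that turned with mitochondrial factors (0.86). In NGP it was 0.387 ± 0.119 (log2 -1.45, SE 0.23, adjusted p = 1.39e-05). The 44.25% of CDK4 exon bases shared with TSPAN31 also bear on these ratios. They bear as well on the difference between lines and the change with STM2457 given below. Their part in these values was not tested. In the vehicle tumours each RIP library held 1 count of CDK4, so the pooled RIP level was 911-fold below input, with a 95% counting interval of 252 to 7518 that covers counting error only. The fit called it (log2 -9.54, edgeR adjusted p = 0.0389), and the call was lost without either vehicle replicate (0.251 and 0.445).

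CCND3 had ratios of 0.0963 to 0.185 in Kelly at 1 day (log2 -2.77, SE 0.60, edgeR adjusted p = 0.00118), 0.149 to 0.292 at 6 days (-2.24, SE 0.60, 0.0068) and 0.139 to 0.209 in NGP (-2.63, SE 0.28, 5.05e-08). The call at 6 days was lost without DMSO replicate 2 or 3 (0.0618 and 0.0525), and its direction turned with mitochondrial factors (2.68). CDKN1A had ratios of 0.253 to 0.324 in Kelly at 1 day (log2 -1.70, SE 0.17, edgeR adjusted p = 1.18e-06) and 0.166 to 0.260 in NGP (-2.31, SE 0.27, 2.04e-07). At 6 days in Kelly they were 0.656, 0.660 and 1.11 and did not pass (-0.34, SE 0.26, 0.272), with the direction turned under mitochondrial factors (4.85). No RIP library of the tumours held a count of CDKN1A. With 3 counts set as the floor of each library, that puts it at least 37.7-fold below its vehicle input. Counts of some other members varied widely between these libraries: CCND3 had 60 and 0 with vehicle, and MDM2 had 1 and 459 with STM2457. The bound therefore describes the lack of counts and does not settle the recovery.

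CCND1 and CDK6 lay near the typical gene. CCND1 was slightly below it in Kelly at 1 day (log2 -0.46, SE 0.095, edgeR adjusted p = 0.000775; 1.18 with mitochondrial factors) and in NGP (-0.79, SE 0.17, 0.000353). At 6 days in Kelly it was at 0.03 (SE 0.32). CDK6 was below in Kelly at 1 day (log2 -0.40, SE 0.097, edgeR adjusted p = 0.00274; 1.24 with mitochondrial factors) and above at 6 days (0.86, SE 0.20, 0.00247), with ratios of 0.701 to 0.758 and 1.73 to 2.00. The call at 1 day was lost without DMSO replicate 3 (-0.28, 0.0834). In NGP it was at 0.01 (SE 0.21).

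The ratio of RIP over input at 6 days with DMSO differed between the lines for 6 of 8 members (5 lower and 1 higher in NGP, background 46.1% of genes, 22.2% lower and 23.9% higher). CDK4 was the one higher in NGP (log2 2.82, SE 0.43, edgeR adjusted p = 0.000107), a direction that turned with mitochondrial factors (-1.68). CDKN2C (log2 -2.60, SE 0.43, adjusted p = 0.000196), CDKN1A (-2.14, SE 0.32, 9.85e-05) and CDKN1B (-1.79, SE 0.25, 5.62e-05) were lower, as were CDK6 (-1.02, SE 0.27, 0.00634) and CCND1 (-0.996, SE 0.20, 0.000875). For MDM2 (0.46, SE 0.34, 0.292) and CCND3 (-0.56, SE 0.42, 0.304) the difference did not pass. With mitochondrial factors both were called lower in NGP (-3.50 and -4.62). The CCND1 call was lost when both treatments entered the fit (-0.85, 0.0722).

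**Figure D4:**
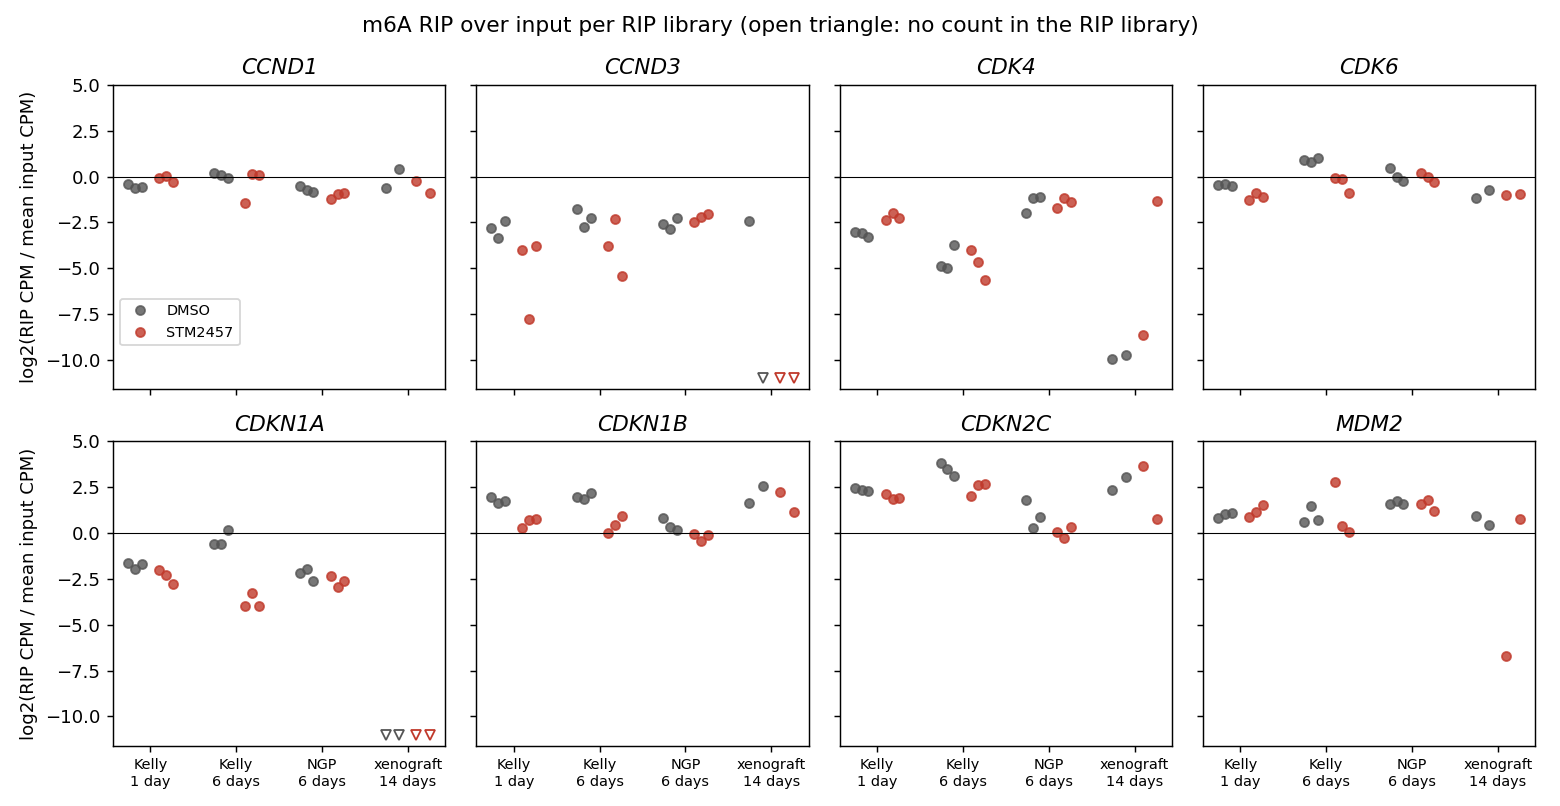
Log2 of each RIP library's CPM over the mean input CPM of its group, for the 8 tested members, by experiment and treatment, with open triangles for libraries without a count. CDKN2C and CDKN1B lie above 0 and CDK4 and CCND3 below it in all DMSO libraries with a count, before any TMM or mitochondrial factor is applied.

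STM2457 changed the ratio of 4 of 8 members in Kelly at 1 day (2 higher and 2 lower, background 17.2% of genes, 9.53% higher and 7.62% lower), of 1 of 8 at 6 days (lower, background 2.06%, 1.26% higher and 0.803% lower), of 0 of 8 in NGP and of 0 of 8 in the tumours (0% each). With mitochondrial factors 7 of 8 were called in Kelly at 1 day, all lower (log2 -0.93 for CCND1 to -2.95 for CCND3), as the all-gene median moved from -0.03 to -1.46. The split of directions therefore holds relative to the typical gene only. In NGP CDKN2C had an unadjusted p under 0.05 and in the tumours CDK4 had, and DESeq2 called no member in either. Over all genes 764 in NGP and 809 in the tumours had such a p, and DESeq2 called 2 and 224. CDKN1B went from ratios of 3.18, 3.41 and 3.87 with DMSO to 1.23, 1.62 and 1.71 with STM2457 in Kelly at 1 day, with no overlap. The change was -1.11 on the log2 scale (SE 0.18, edgeR adjusted p = 0.000994), beside an input change of 0.20. At 6 days the ratios went from 3.63 to 4.54 down to 1.02 to 1.94 (log2 -1.12, SE 0.32, adjusted p = 0.0941), which passed with DESeq2 (0.0243).

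CDKN1A at 6 days in Kelly had ratios of 0.656, 0.660 and 1.11 with DMSO and 0.0635, 0.0645 and 0.103 with STM2457. The change of -3.03 (SE 0.38, edgeR adjusted p = 0.0137) came beside its fall in input, and the RIP counts of the treated libraries were 65, 100 and 130. The call was lost without DMSO replicate 1 (-3.52, 0.0829) or 2 (-3.12, 0.119). At 1 day (log2 -0.46, SE 0.24, adjusted p = 0.218) and in NGP (-0.31, SE 0.38, 0.937) it did not pass.

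CDK4 and CCND1 changed the other way in Kelly at 1 day. The ratio of CDK4 went from 0.102 to 0.125 with DMSO to 0.192 to 0.257 with STM2457 (log2 1.03, SE 0.16, edgeR adjusted p = 0.000753; -0.43 with mitochondrial factors). That of CCND1 went from 0.641 to 0.763 up to 0.809 to 1.03 (log2 0.51, SE 0.13, adjusted p = 0.0199; -0.93 with mitochondrial factors). CDK6 fell from 0.701 to 0.758 down to 0.417 to 0.537 (log2 -0.53, SE 0.14, adjusted p = 0.0196). The CCND1 call was lost in 4 and the CDK6 call in 5 of the 6 fits that left out 1 replicate, whereas those of CDK4 and CDKN1B held in all 6. Over all 11 alternatives CDK6 was called in 5. In the tumours 1 treated RIP library held 396 counts of CDK4 and the other held 1, so the group has no common level.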

How the data were processed

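Poly(A) input and m6A RIP libraries were counted by the authors with featureCounts 1.5.3 on the protein-coding part of GENCODE 33, per the file headers, and the deposited values are raw counts of fragments per gene. The submitters' processing notes also name FastQC 0.11.5, Trimmomatic 0.36, HISAT2 2.1.0, Subread 1.5.3 and deepTools 2.0. Spike-in RNA was not analysed here.

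Each experiment was fitted on its whole table in R 4.3.3 with edgeR 4.0.16 (TMM, filterByExpr with a minimum count of 10 and a total of 15, quasi-likelihood test, two-sided, Benjamini-Hochberg over all genes tested, threshold 0.05). SE is the log2 value over the square root of F. CPM uses library totals, and CPM per kb the exon length in the files. The scripts were tested on simulated data. No replicate pair agreed within sampling noise (over 40 pairs the smallest ratio of chi-square to its degrees of freedom was 2.73). Replicate numbers were not taken to pair samples. Same-number correlations of deviations from the group mean ran from -0.349 to 0.251. In groups this small the deviations constrain each other, so these correlations cannot show whether samples were paired.

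The members and the lists were chosen with earlier results of these data known. Named genes were the members, the called genes of each list with the 2 largest rises and falls (not all are given), the 3 largest neighbours either way of CDK4 and MDM2 (the higher ones are given), and the 2 genes most alike to CDK4, MDM2, CCND1 and CDKN1A. Alternatives were DESeq2 1.42.0, RLE size factors in place of TMM, no filter, the replicate block and mitochondrial mRNA factors. Others were 1 fit of all 22 inputs, both treatments in the fit, and each replicate left out. Some genes and the lists built on them are not reported here.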

Additional observations from a re-analysis of the deposited data

Results flagged for a closer look

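The response of input RNA in Kelly differed between 6 days and 1 day for 2 members by a test of the difference itself (edgeR interaction, adjusted over all genes). The 2 times were separate experiments, so time and experiment cannot be told apart. CDKN1A fell further at 6 days (log2 difference -0.56, adjusted p = 0.00368), and the change of CCND1 was the more positive one at 6 days (difference 0.29, 0.0303). The CCND1 call was lost with the replicate block (0.0677) and in 5 of 12 fits without 1 replicate (0.0515 to 0.0757).

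The ratio of RIP over input with DMSO at 6 days differed between NGP and Kelly for 6 members by the same kind of test. It was higher in NGP for CDK4 (log2 difference 2.82), but lower with mitochondrial factors (-1.68, not called). It was lower in NGP for CDKN2C (-2.60), CDKN1A (-2.14), CDKN1B (-1.79), CDK6 (-1.02) and CCND1 (-0.996), the last a call lost when both treatments entered the fit (adjusted p = 0.0722).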

How the results depend on the processing

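Counts are of the 8 members tested. With all 22 inputs in 1 fit the calls of input change went from 2 to 0 in Kelly at 1 day, from 6 to 1 in Kelly at 6 days, from 1 to 2 in NGP and from 0 to 1 in the tumours. NGP also had 2 with DESeq2, with no filter and with the replicate block. Calls of RIP over input in the tumours went from 1 to 4 with DESeq2, 2 with no filter, 2 with the replicate block and 0 with mitochondrial factors. Calls of its change went from 4 to 7 in Kelly at 1 day with mitochondrial factors, and at 6 days from 1 to 3 with DESeq2, 4 with mitochondrial factors and 0 with the replicate block, which also left 1 of 2 calls for Kelly at 6 days against 1 day. The replicate block was not fitted for NGP over Kelly. In single results it ended 3 calls (the change of the ratio of CCND1 at 1 day, 0.0588, and of CDKN1A at 6 days, 0.0954, and the CCND1 response difference, 0.0677) and added 2, both of CDKN2C (input in NGP, 0.0254, and the tumour ratio, 0.0321).

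Leaving out 1 replicate gave input calls of 2 to 3 in Kelly at 1 day, 3 to 6 at 6 days, 1 to 2 in NGP and 0 to 2 in the tumours. Calls of RIP over input were 7 to 8, 4 to 5, 5 to 6 and 0 to 2, and of its change 2 to 3, 0 to 2, 0 and 0, in the same order. They were 5 to 5 for NGP over Kelly, 1 to 2 for 6 days against 1 day, 0 for Kelly against NGP and 6 to 6 for the ratio between lines. The range held both signs for 24 of 120 single results, none of them called with all libraries. The turned value lay at least 1 SE from the reported one for 4: CCND3 input in NGP (-0.14 to 0.28), CDK6 input in the tumours (-0.035 to 0.64), CCND1 RIP over input there (-0.86 to 0.81) and the change of MDM2 in Kelly at 6 days (-0.18 to 1.303).

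Mitochondrial factors turned 14 directions by at least 1 SE or with a call, and 1 more by less. For RIP over input these were CCND1 (1.18) and CDK6 (1.24) in Kelly at 1 day, CCND3 (2.68), CDK4 (0.86) and CDKN1A (4.85) at 6 days, and CDK6 in the tumours (1.63). For its change they were CCND1 (-0.93), CDK4 (-0.43) and MDM2 (-1.13) at 1 day and CCND1 (-2.33), CDK4 (-2.79) and MDM2 (-1.41) at 6 days. For NGP against Kelly they were CDK4 (-1.68) and MDM2 (-3.50). The all-gene median of the change moved from -0.03 to -1.46 in Kelly at 1 day and from 0.20 to -2.20 at 6 days. The cause was not tested. The tumours had 2 libraries for each group and input totals of 2144870 to 7271929 counts, and which of these limits their calls was not tested.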
